A study of Oryza sativa with 4 samples.

Results

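The genes described here are named for enzymes that make and break down abscisic acid (ABA) in rice. They were chosen by locus identifier and comprise 5 loci named as 9-cis-epoxycarotenoid dioxygenases (NCED1 to NCED5), 1 zeaxanthin epoxidase (ZEP) and 3 ABA 8'-hydroxylases (ABA8ox1 to ABA8ox3). These are 9 of the 37869 loci in the deposited gene table, which lists 44553 sequences. Each of the 9 was listed with 1 transcript.

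RNA-seq was performed on leaves of Oryza sativa cv. Ilmi at 5 weeks of age. A control library (C) was made from well-watered plants, and 3 further libraries from plants left without water for 1, 2 and 3 d (1 d, 2 d and 3 d). Leaves of several plants were pooled for each condition and 1 library was made from each pool, so no test between conditions was possible. The control was collected before water was withheld, so that drought and the day of sampling cannot be told apart. The plants of all 4 groups carried no transgene or mutation that the labels name. The libraries held 56727328 (C), 52626188 (1 d), 60322263 (2 d) and 56909968 (3 d) reads mapped to genes, and levels are given as read counts scaled to these totals (CPM). In brackets beside each log2 ratio is its exact 95% interval, which covers counting error only and not the variation between plants. A locus is called higher or lower where its ratio to C was at least 2-fold. In a bulk leaf sample, fewer cells of a type and less RNA per cell cannot be told apart.

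ABA is the plant hormone that accumulates in leaves short of water and closes stomata. It is made from carotenoids in the plastid: zeaxanthin epoxidase converts zeaxanthin to violaxanthin, and NCED then cleaves a 9-cis-epoxycarotenoid to xanthoxin, the step generally regarded as rate-limiting. ABA is inactivated mainly by 8'-hydroxylation, carried out by cytochrome P450 enzymes of the CYP707A family.

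The deposited annotations fit these names to different degrees. NCED4 (Os07t0154100) and NCED5 (Os12t0617400) were annotated as similar to or as Viviparous-14, the maize NCED. NCED1 (Os02t0704000) and NCED3 (Os03t0645900) were given only as carotenoid oxygenase family proteins, and NCED2 (Os12t0435200) as similar to a zeaxanthin cleavage oxygenase. ZEP (Os04t0448900) was annotated as similar to zeaxanthin epoxidase. ABA8ox1 (Os02t0703600) was annotated as similar to ABA 8'-hydroxylase 1, whereas ABA8ox2 (Os08t0472800) and ABA8ox3 (Os09t0457100) were listed as cytochrome P450 family members. RefSeq (assembly ASM3414082v1) gives the rice names OsNCED3, OsZEP1 and OsABA8ox1 to OsABA8ox3 to 5 of the 9. NCED1, NCED2, NCED4 and NCED5 are not among these. Neither source thus names NCED1 as a dioxygenase of ABA synthesis, and its part in that pathway was not tested.

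The leading dioxygenase transcript differed between the first pair of libraries (C and 1 d) and the later pair (2 d and 3 d). NCED1 carried 97.4% of the NCED reads in C and 0.476% at 3 d, while NCED4 carried 1.04% in C and 88.1% at 3 d. ABA8ox1 was 19.0-fold lower at 1 d than in C and, in CPM, was back near the control level at 2 d and 3 d. ZEP stayed within 2-fold of C at each time in CPM. Of the 9 loci, 8 passed the minimum of 10 reads over the 4 libraries, and NCED2 had no read in any library. Taking 3 reads as the limit that a count of 0 allows, NCED2 could have had up to 0.0529 CPM in C, 0.0570 at 1 d, 0.0497 at 2 d and 0.0527 at 3 d.

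**Figure D1:**
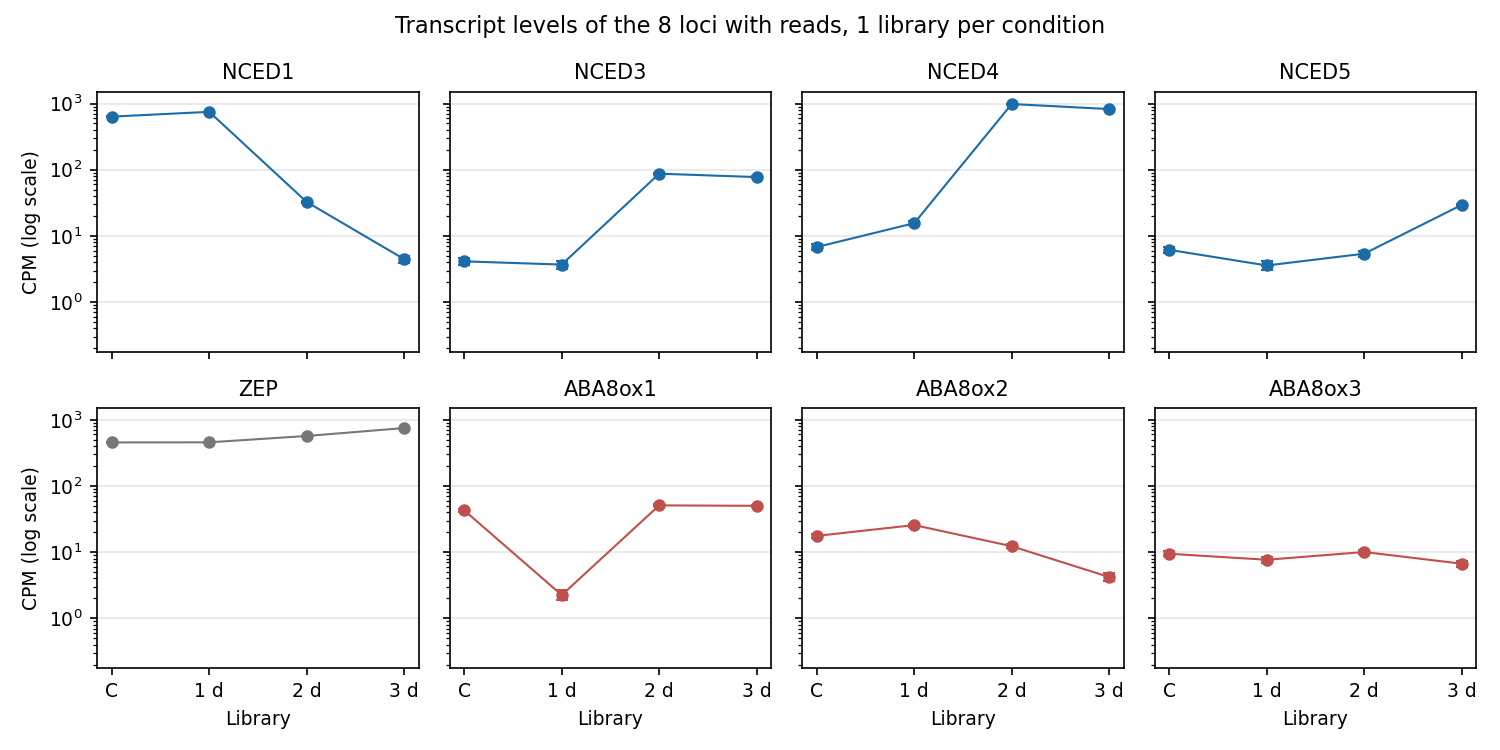
Level of each of the 8 loci with reads, in CPM on a log axis, in the libraries C, 1 d, 2 d and 3 d (1 library each; bars are exact 95% counting intervals; blue, dioxygenases; grey, ZEP; red, 8'-hydroxylases). NCED1 went from 635 to 4.46 CPM between C and 3 d and NCED4 from 6.79 to 826 CPM, while ABA8ox1 dipped to 2.24 CPM at 1 d.

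Of the 8 loci, 1 was called higher and 1 lower at 1 d. Over all loci with a ratio, 5.71% were called higher and 4.57% lower at that time. At 2 d, 2 of the 8 were higher and 1 was lower, beside 19.9% higher and 34.9% lower of all loci. At 3 d, 3 were higher and 2 lower, beside 20.8% and 47.4% of all loci. The median log2 ratio of all loci was 0.03 at 1 d, -0.41 at 2 d and -0.86 at 3 d, so the later comparisons have to be read against a general shift to lower values. Scaling by TMM factors instead of total reads added 0.33 to every log2 ratio at 2 d and 0.72 at 3 d, and DESeq2 size factors added 0.36 and 0.86. The split of all loci at 3 d then became 30.5% higher and 34.8% lower with TMM, and 32.7% and 32.6% with DESeq2.

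NCED4, close to the maize enzyme by annotation, had the largest positive ratio of the 8 loci with reads. Its reads numbered 385 in C, 820 at 1 d, 59375 at 2 d and 47036 at 3 d. The level was already 2.30-fold above C at 1 d, where the log2 value was 1.20 (1.02 to 1.38). At 2 d the log2 ratio was 7.18 (7.04 to 7.33), a 145-fold higher level, and 76 of 31344 loci had a higher ratio. At 3 d it was 6.93 (6.78 to 7.08), or 122-fold. The step from 2 d to 3 d was -0.25 (-0.27 to -0.23) in CPM but 0.14 with TMM factors and 0.25 with DESeq2 size factors, so its direction depended on the scaling.

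NCED3 followed NCED4 without the early step. It had 234 reads in C, 194 at 1 d, 5260 at 2 d and 4409 at 3 d. At 1 d the log2 ratio was -0.16, and its interval (-0.44 to 0.12) included no change. It was 21.1-fold above C at 2 d (log2 4.40, interval 4.21 to 4.60) and 18.8-fold above C at 3 d (log2 4.23, interval 4.04 to 4.43). As for NCED4, the step from 2 d to 3 d changed sign with the scaling, from -0.17 in CPM to 0.22 with TMM and 0.33 with DESeq2.

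NCED5 was the late member of the family. It had 349 reads in C, 188 at 1 d, 325 at 2 d and 1670 at 3 d, and in CPM only the 3 d library stood above C. The log2 ratio was -0.78 (-1.05 to -0.52) at 1 d, -0.19 (-0.41 to 0.03) at 2 d and 2.25 (2.09 to 2.42) at 3 d, the last a 4.77-fold higher level. The 2 d value turned positive with TMM (0.14) and with DESeq2 (0.17).

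The study's supplementary data list NCED5 as a predicted target of miR415, a small regulatory RNA. Plant miRNAs pair with their targets along most of their length and guide cleavage of the target. The cleavage products that the study listed for miR415 were of other genes. The mature miR415 is shown because one of the 9 loci is its predicted target, 5′ to 3′ with the seed (bases 2 to 8) in capitals.
miR415: aACAGAACagaagcagagcag
The precursor of miR415 had 32 reads in C, 15 at 1 d, 22 at 2 d and 209 at 3 d. Scaled to the reads mapped to genes, its log2 ratio to C was -0.98 (-1.98 to -0.06) at 1 d, -0.63 (-1.48 to 0.20) at 2 d and 2.70 (2.16 to 3.29) at 3 d. In CPM, the 3 d library was the one in which both the precursor and NCED5 were above C. Mature miR415 was not analysed here, and any effect of it on NCED5 was not tested.

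NCED1 went the opposite way. Its reads numbered 36026 in C, 39495 at 1 d, 1966 at 2 d and 254 at 3 d, so that both later libraries lay far below the first pair. The log2 ratio was 0.24 (0.22 to 0.26) at 1 d, -4.28 (-4.35 to -4.22) at 2 d and -7.15 (-7.34 to -6.97) at 3 d. The level was 19.5-fold lower at 2 d and 142-fold lower at 3 d (126- to 162-fold), and 149 of 30920 loci had a lower ratio at 3 d. Both leaf marker loci were also lower in these libraries. The small subunit of Rubisco (Os12t0274700) had 1450, 1278, 171 and 13.5 CPM in C, 1 d, 2 d and 3 d, and a chlorophyll a/b-binding protein (Os01t0720500) had 221, 146, 1.69 and 0.474 CPM. Whether these 2 transcripts and NCED1 share a cause was not tested. RCc3 (Os02t0662000), a root marker, had no read in any library. Of 50 loci annotated with the seed proteins glutelin or prolamin, 26 had reads, with a summed level of 226, 237, 211 and 171 CPM. Most of that sum came from 1 locus annotated as a maturation enzyme of these proteins and not as a storage protein, and without it the sum was 66.0, 70.4, 54.9 and 62.9 CPM.

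**Figure D2:**
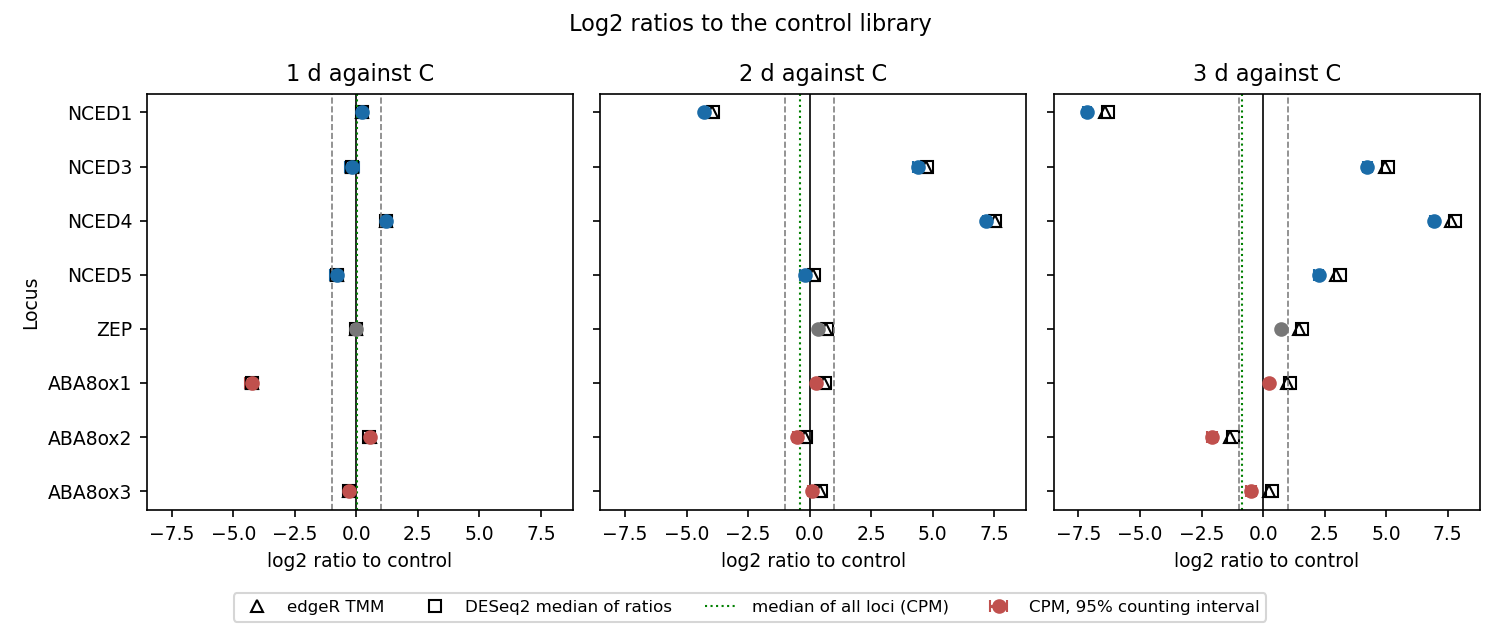
Log2 ratio of each locus to C at 1, 2 and 3 d, scaled to total reads (filled circles, with the 95% counting interval), by TMM (triangles) and by DESeq2 (squares); dashed lines mark 2-fold and the dotted line the median of all loci in CPM. At 3 d the other scalings moved every point to the right by 0.72 or 0.86, which took ZEP past 2-fold.

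NCED1 and NCED4 exchanged places, so the sum over the loci named NCED varied less than NCED1, NCED3 or NCED4. Whether NCED1 acts in ABA synthesis was not tested, so this sum need not be one of ABA-forming transcripts. The summed NCED level was 652 CPM in C, 773 at 1 d, 1109 at 2 d and 938 at 3 d. NCED1 made up 97.4%, 97.0%, 2.94% and 0.476% of the NCED reads in these libraries, and NCED4 1.04%, 2.01%, 88.7% and 88.1%. NCED3 gave 0.633%, 0.477%, 7.86% and 8.26%, and NCED5 0.943%, 0.462%, 0.486% and 3.13%. Without NCED1, the remaining dioxygenases summed to 17.1 CPM in C, 22.8 at 1 d, 1077 at 2 d and 933 at 3 d.

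ZEP, which acts upstream of NCED, had 25777 reads in C, 24009 at 1 d, 34304 at 2 d and 42651 at 3 d. Its log2 ratio was 0.01 (-0.02 to 0.03) at 1 d, 0.32 (0.30 to 0.35) at 2 d and 0.72 (0.70 to 0.74) at 3 d, a 1.65-fold higher level at the last time. It was not called at any time in CPM. With TMM factors the 3 d value was 1.44 and with DESeq2 size factors 1.58, both past 2-fold.

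ABA8ox1 showed the largest difference of the 8 loci at 1 d. It had 2415 reads in C, 118 at 1 d, 3065 at 2 d and 2849 at 3 d. The 1 d library alone was low, and in CPM the other 3 lay close together. The log2 ratio at 1 d was -4.25 (-4.53 to -3.98), a 19.0-fold lower level (15.8- to 23.0-fold), and 20 of 31504 loci had a lower ratio. At 2 d the level was 22.7-fold above that at 1 d and close to C, with a log2 ratio to C of 0.26 (0.18 to 0.33). At 3 d the ratio was 0.23 (0.16 to 0.31), and the step from 2 d to 3 d was -0.02 (-0.10 to 0.05). That step was 0.37 with TMM factors and 0.48 with DESeq2 size factors. TMM factors took the 3 d ratio to 0.95, and DESeq2 size factors took it to 1.09, just past 2-fold. The low value rests on a single library.

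ABA8ox2 was highest at 1 d, when ABA8ox1 was lowest. It had 998 reads in C, 1347 at 1 d, 740 at 2 d and 239 at 3 d. The log2 ratio was 0.54 (0.42 to 0.66) at 1 d, -0.52 (-0.66 to -0.38) at 2 d and -2.07 (-2.28 to -1.86) at 3 d, a 4.19-fold lower level.

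ABA8ox3 varied least of the 3 hydroxylases. It had 535 reads in C, 403 at 1 d, 605 at 2 d and 380 at 3 d. The log2 ratio was -0.30 (-0.49 to -0.11) at 1 d, 0.09 (-0.08 to 0.26) at 2 d and -0.50 (-0.69 to -0.31) at 3 d, none of them past 2-fold. The 3 d value turned positive with TMM (0.22) and with DESeq2 (0.36).

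The make-up of the hydroxylase reads followed these differences. ABA8ox1 gave 61.2% of them in C, 6.32% at 1 d, 69.5% at 2 d and 82.2% at 3 d. ABA8ox2 gave 25.3%, 72.1%, 16.8% and 6.89%, so that it led only in the 1 d library. ABA8ox3 gave 13.6%, 21.6%, 13.7% and 11.0%. The summed level was 69.6 CPM in C, 35.5 at 1 d, 73.1 at 2 d and 60.9 at 3 d.

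**Figure D3:**
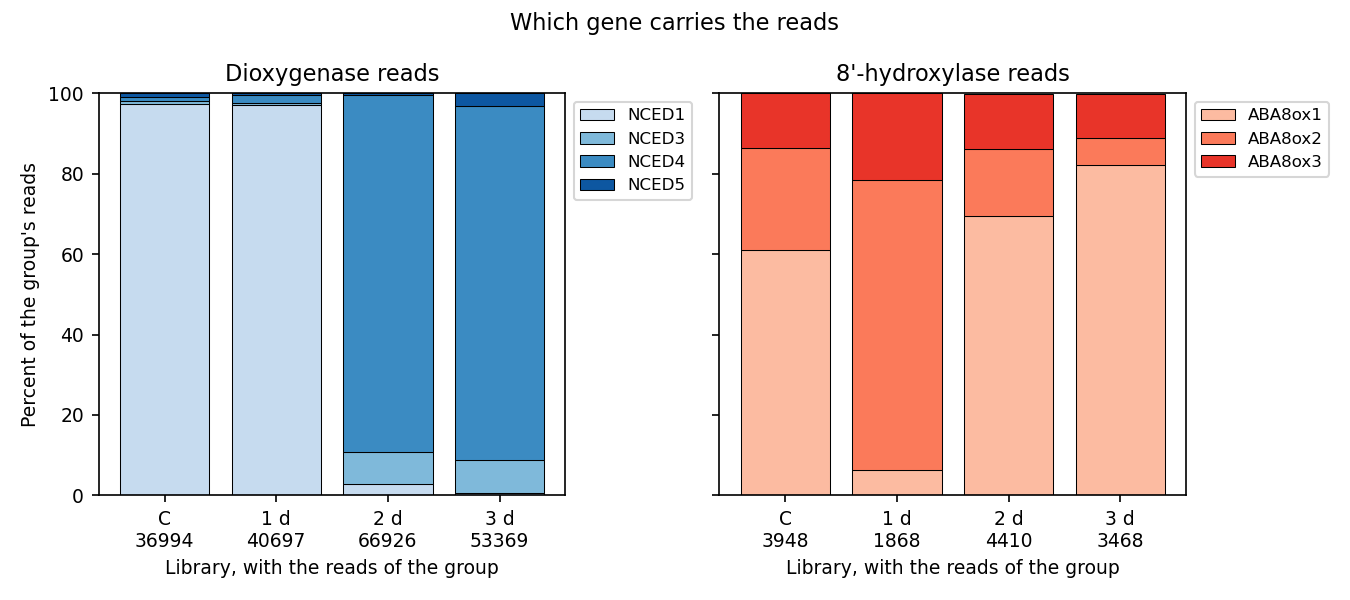
Percent of the dioxygenase reads (left) and of the 8'-hydroxylase reads (right) that each gene gave in C, 1 d, 2 d and 3 d, with the number of reads of the group under each bar. NCED1 filled 97.4% of the left bar in C and NCED4 88.7% at 2 d, and ABA8ox2 led the right bar only at 1 d (72.1%).

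Within a library, the share of NCED against ABA8ox reads does not depend on the scaling between libraries. NCED reads made up 90.4% of the NCED and ABA8ox reads in C (exact 95% interval 90.1 to 90.6), 95.6% at 1 d (95.4 to 95.8), 93.8% at 2 d (93.6 to 94.0) and 93.9% at 3 d (93.7 to 94.1). The share was thus highest at 1 d, the library with the low ABA8ox1 level. Counting only NCED3, NCED4 and NCED5, it was 19.7% in C (18.6 to 20.8), 39.2% at 1 d (37.4 to 40.9), 93.6% at 2 d and 93.9% at 3 d. The large share in C therefore came from NCED1, whose part in ABA synthesis was not tested.

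Levels of different genes were compared per kb of deposited sequence length. This length includes introns for at least ABA8ox2, whose 5550 bases equal the span of the gene in RefSeq. It was also close to that span for ZEP (6853 of 7062 bases), ABA8ox1 (2736 of 2793) and ABA8ox3 (3387 of 3476), beside 2060 of 2543 for NCED3. Counted introns make a value per kb too low, so ZEP and the hydroxylases may be placed too low beside the dioxygenases. In C, NCED1 had 306 CPM per kb and ZEP 66.3, followed by ABA8ox1 with 15.6. The other 5 loci with reads lay between 2.00 and 4.17, with NCED4 and ABA8ox2 both at 3.17. At 2 d NCED4 led with 459 CPM per kb, above the level of NCED1 in C, ahead of ZEP with 83.0 and NCED3 with 42.3. At 3 d the order was NCED4 (385), ZEP (109), NCED3 (37.6), NCED5 (19.9) and ABA8ox1 (18.3), and NCED1 was down to 2.15 CPM per kb. NCED1 and ABA8ox3 (1.97) were then close neighbours, and ABA8ox2 was last with 0.757.

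The loci most like 3 of these genes were sought by the distance between their log2 ratios at 1, 2 and 3 d, among 13494 loci with a mean of at least 100 reads and an annotation that names a protein. For NCED4, which had the most reads among the dioxygenases, the closest was Os03t0820500, annotated as similar to WCOR719, at a distance of 0.27. It had 429, 1098, 66837 and 53094 reads in C, 1 d, 2 d and 3 d. Os10t0548100, similar to DM280 protein, followed at 0.29 and Os05t0475400, similar to an alanine:glyoxylate aminotransferase, at 0.33, and 6 loci in all lay within 0.5. ABA8ox1 had no close match among the loci searched, with none within 1. Entries annotated only as hypothetical were left out, among them Os02t0703700 beside ABA8ox1, at a distance of 0.14. Of the loci searched, the nearest to ABA8ox1 were Os06t0683400, an EF-hand protein with 2509, 238, 2742 and 2080 reads (distance 1.11), Os01t0511000, a LOB domain protein (1.14), and Os08t0482600, a cupredoxin domain protein (1.16). ZEP followed a common course, with 634 loci within 0.5, the nearest being Os06t0664100 (Xaa-Pro aminopeptidase 1), Os08t0128300 (actin-like protein 3) and Os07t0507700 (a bromodomain protein).

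The list for other steps of ABA synthesis held 17 loci, chosen mainly by annotation words. Most were aldehyde oxidases, which include the enzyme of the last step, or proteins of the molybdenum cofactor that these oxidases need. Which of these loci act in ABA synthesis was not tested. Of the 15 with a ratio, 1 was called higher and none lower at 1 d, 4 higher and 2 lower at 2 d, and 6 higher and 4 lower at 3 d. Of all loci, 5.71% were higher and 4.57% lower at 1 d, 19.9% and 34.9% at 2 d, and 20.8% and 47.4% at 3 d. With TMM factors 9 of the list were higher and 3 lower at 3 d, beside 30.5% and 34.8% of all loci. With DESeq2 size factors it was 10 and 3, beside 32.7% and 32.6%. Their median log2 ratio was 0.23, 0.14 and 0.82 at 1, 2 and 3 d. The locus annotated as ABA aldehyde oxidase itself, Os07t0164900, had 5167 reads in C, 5009 at 1 d, 5034 at 2 d and 738 at 3 d, a 7.02-fold lower level at 3 d. Os03t0810800, a short-chain alcohol dehydrogenase, the class of enzyme that oxidises xanthoxin, had 574, 807, 141 and 71 reads, with a log2 ratio of -3.02 at 3 d. Os06t0670000, a molybdenum cofactor sulfurase, was within 2-fold of C in CPM, with 1810, 1587, 2951 and 3240 reads. Os07t0164900 and Os03t0810800 were thus lower at 3 d while NCED3 and NCED4 were higher, beside 47.4% of all loci called lower.

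Aldehyde oxidase loci called higher at 3 d were Os07t0281700 (log2 ratio 2.96), Os07t0281800 (2.44), Os07t0282300 (1.74) and Os07t0282401 (1.30). Those called lower, beside Os07t0164900 (-2.81), were Os07t0282500 (-2.92) and Os10t0138100 (-1.55), the latter higher at 1 d (2.51) and 2 d (1.73). Os03t0790900 (0.55), Os03t0790700 (0.82) and Os03t0798000 (0.21) were not called at 3 d in CPM. Os03t0791200 had 0 reads in C and 93 at 3 d, at least 30.9-fold higher against a floor of 3 reads in C, and with such bounds included the median at 3 d was 0.83. Os03t0798101 had 2 reads in all. Of the 2 loci with a molybdenum cofactor sulfurase C-terminal domain, Os09t0560700 was higher at 3 d (1.72) and Os09t0560800 was not called (-0.70). Os01t0128300, placed in the list by its identifier and annotated only as similar to a predicted protein, had 148, 161, 3972 and 3263 reads, with log2 ratios of 4.66 at 2 d and 4.46 at 3 d beside 4.40 and 4.23 for NCED3. These oxidases are close relatives, and reads shared between them could have been divided among copies.

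Of 7 other loci annotated as carotenoid cleavage dioxygenases or carotenoid oxygenases, 6 had a ratio, and 1 was called higher and 2 lower at 3 d, beside 20.8% and 47.4% of all loci. Os04t0550600 was the higher one, with 63, 88, 304 and 192 reads and a log2 ratio of 2.18 at 2 d and 1.60 at 3 d. Os08t0371608 (-2.98) and Os06t0162550 (-2.12) were lower at 3 d. The most abundant, Os12t0640600, had 15222, 13014, 13663 and 8815 reads (-0.79 at 3 d). Os08t0371200 had 1575, 1625, 2945 and 1520 reads (-0.06 at 3 d). Os01t0746400 had 7, 16, 11 and 5 reads and Os09t0321200 had 1 read in all. None of the 6 with a ratio differed from C by as much as NCED1, NCED3 or NCED4 did at 2 d or 3 d. This did not hold for NCED5. All 6 lay further from C than NCED5 (-0.19) at 2 d, and Os08t0371608 did so at 3 d, when NCED5 was at 2.25.

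**Figure D4:**
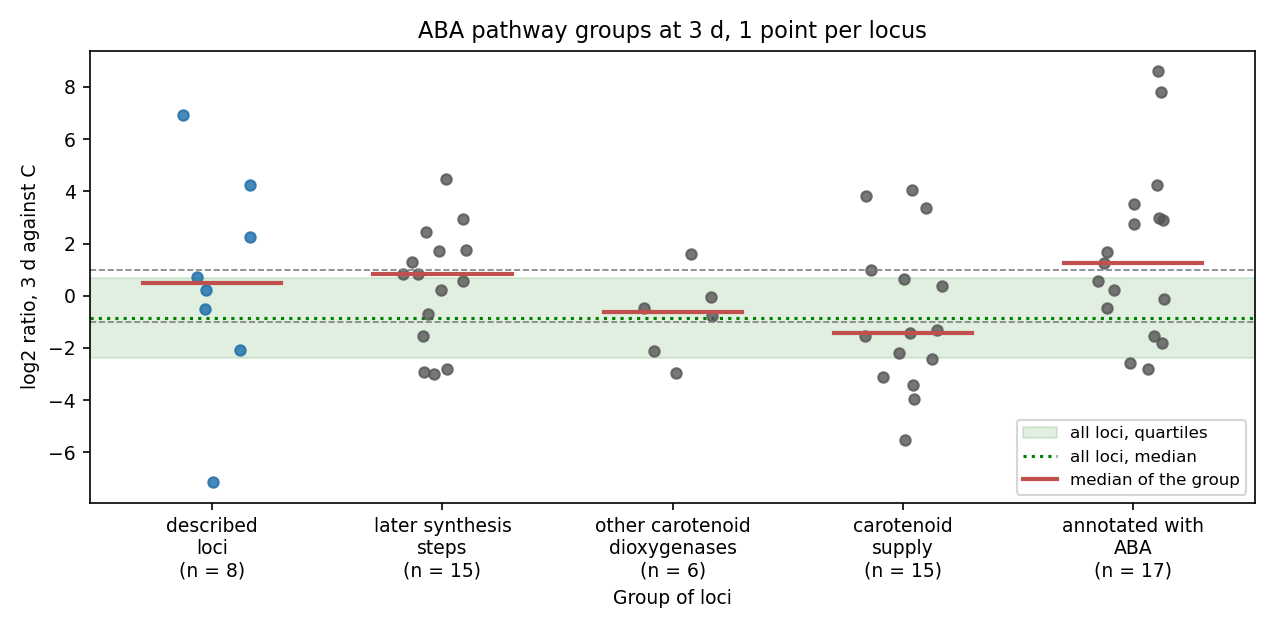
Log2 ratio at 3 d against C, 1 point per locus, for the described loci (NCED, ZEP and ABA8ox), later steps of ABA synthesis, other carotenoid dioxygenases, carotenoid supply and loci annotated with ABA; red bars are medians, the green band and dotted line the quartiles and median of all loci, dashed lines 2-fold. The medians of the list of later steps (0.82) and of the loci annotated with ABA (1.23) lay above that of all loci (-0.86). That of the carotenoid supply list (-1.44), whose loci differed in both directions, lay below it. The lists were made mainly by annotation words, and not every locus need act in the step named.

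The list labelled carotenoid supply held 15 loci with words such as phytoene, lycopene or violaxanthin in their annotation. Not all of them lead to the substrate of ZEP or NCED, since violaxanthin de-epoxidases, which use up violaxanthin, are included. At 3 d, 3 were called higher and 9 lower, beside 20.8% and 47.4% of all loci, and the median log2 ratio was -1.44. With TMM or DESeq2 scaling, 6 were higher and 6 lower. Of all loci, 30.5% were then higher and 34.8% lower with TMM, and 32.7% and 32.6% with DESeq2. Beta-carotene hydroxylase (Os03t0125100), which makes the zeaxanthin used by ZEP, had 300, 360, 9267 and 4997 reads and a log2 ratio of 4.05 at 3 d. The others called higher at 3 d were the phytoene synthase loci Os12t0626400 (3.82) and Os09t0555500 (3.35). Another phytoene synthase, Os06t0729000 (0.99), a phytoene desaturase, Os03t0184000 (0.37), and a zeta-carotene desaturase, Os07t0204900 (0.64), were not called in CPM. Lycopene epsilon-cyclase, Os01t0581300 (-3.42), was among the 9 called lower. Violaxanthin de-epoxidase (Os04t0379700), which turns violaxanthin back to zeaxanthin in strong light, had 4739, 4234, 289 and 102 reads (-5.54), and a second locus of that family, Os01t0716400, 1648, 1575, 839 and 106 reads (-3.96). The enzymes that form and regenerate zeaxanthin thus differed in opposite directions while ZEP stayed within 2-fold in CPM, though not at 3 d with TMM or DESeq2 scaling.

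Among 18 loci with ABA in their annotation, 17 had a ratio, and 9 were called higher and 4 lower at 3 d, beside 20.8% and 47.4% of all loci. The median log2 ratio was 1.23, or 1.45 with a bound for the remaining locus. That locus, the ABA response element binding factor Os01t0859300, had 0, 2, 234 and 656 reads, at least 218-fold higher at 3 d against a floor of 3 reads in C. Among the 17 with a ratio, the furthest from C at 3 d were the ABA-induced membrane protein PM 19 (Os05t0381400), with 13, 25, 2129 and 5066 reads and a log2 ratio of 8.60 at 3 d, the calcium-binding protein EFA27 (Os04t0511200), with 324, 935, 41733 and 72482 reads (7.80), and the protein kinase SAPK1 (Os03t0390200), with 557, 594, 4054 and 10555 reads (4.24). As with NCED4, EFA27 had more reads at 1 d than in C, whereas SAPK1 was near C until 2 d. ABA aldehyde oxidase (Os07t0164900) is in this list too and was among the 4 called lower at 3 d. The others were an ABA responsive element binding factor, Os07t0686100 (-2.58), a locus similar to EFA27, Os02t0734600 (-1.82), and an ABA/WDS induced protein, Os01t0963600 (-1.56).

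For 7 of the 8 loci with reads, the table also lists an entry with the next or a nearby identifier that is annotated only as hypothetical, and these entries were picked after their values had been seen. The entry beside ABA8ox1, Os02t0703700, had 1963, 87, 2527 and 2310 reads, or 0.813, 0.737, 0.824 and 0.811 per ABA8ox1 read. That beside NCED4, Os07t0154201, had 83, 251, 21016 and 16109 reads, and that beside NCED1, Os02t0704131, had 18719, 20399, 942 and 97. The entries beside NCED3 (Os03t0645966), NCED5 (Os12t0617250), ABA8ox2 (Os08t0473200) and ABA8ox3 (Os09t0457250) had at most 1767, 972, 449 and 191 reads. The distance between the log2 ratios of a locus and its entry ranged from 0.14 to 1.10, which the choice of entries fixed in part. Adding the reads of the entry to those of the locus changed none of the calls. The libraries were strand-specific, but the use of strand in counting is not stated, so reads of a gene and of a sequence overlapping it on the other strand may not have been separated.

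**Figure D5:**
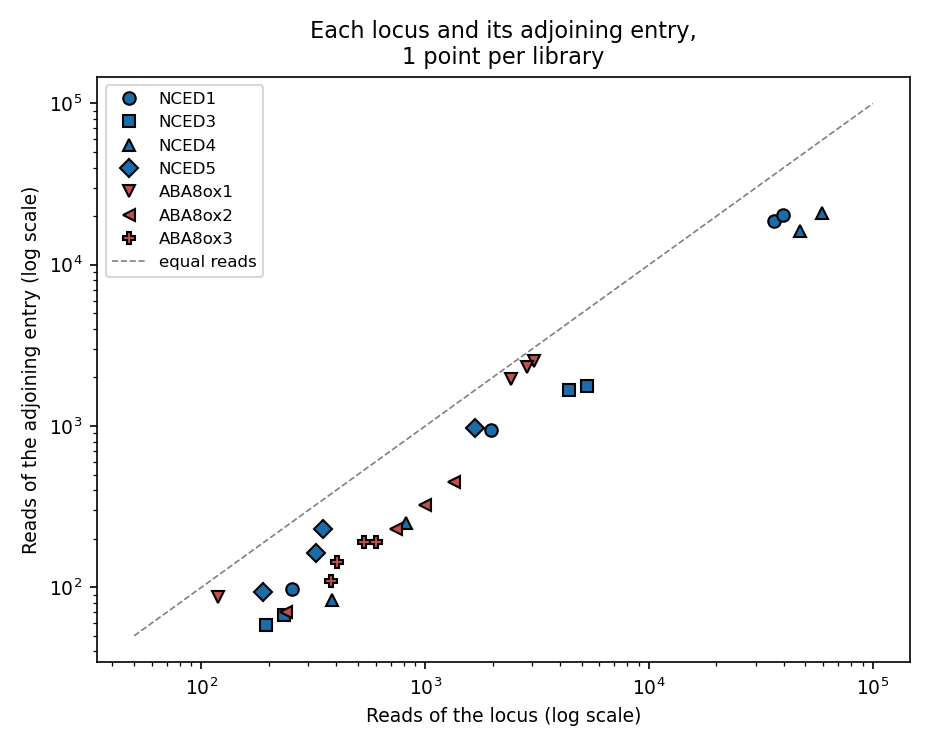
Reads of each adjoining hypothetical entry against reads of its locus in the 4 libraries, 1 point per library, both axes on a log scale (blue, dioxygenases; red, 8'-hydroxylases; dashed line, equal reads). All points lay below the line of equal reads, and for ABA8ox1 at 0.737 to 0.824 reads of the entry per read of the locus.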

How the data were processed

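The authors removed adaptor sequence, low-quality reads and duplicates (FastUniq), mapped the rest with clc_ref_assemble to RAP-DB gene sequences (IRGSP 1.0) and to noncoding RNA sequences, and deposited raw read counts per sequence. The deposited normalized values and log2 ratios, which hold the authors' own comparisons, were not used. The deposited length was used as given.

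Counts were divided by the gene-mapped reads of each library (CPM). The transcript with the most reads stood for its locus, and loci under 10 reads over 4 libraries were left out. With 1 library per condition no test was made, and log2 ratios to C carry exact Clopper-Pearson 95% intervals. CPM carry exact Poisson intervals. A call is a ratio of at least 2-fold, the threshold used in the study. Reads without molecular identifiers are not independent molecules, so intervals and floors (3 reads) cover counting error only. Computations used Python 3.11.15, numpy 2.4.6, pandas 2.3.3 and scipy 1.17.1, and were checked on simulated data. TMM factors (edgeR 4.0.16) and DESeq2 1.42.0 size factors served only as alternative scalings.

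The loci and lists were chosen with earlier results of these data known. Named were the 9 loci, all loci with reads among later synthesis steps and other carotenoid dioxygenases, the 3 largest 3 d ratios (mean of at least 100 reads) among carotenoid supply and ABA-annotated loci, and the 3 loci nearest in pattern to the most abundant NCED, ABA8ox and ZEP locus. Adjoining entries, and the further loci named among carotenoid supply and ABA-annotated loci, were chosen after their values were seen. Alternatives changed the scaling, the filter (none or 100 reads), the addition of 1 read, the choice of transcript and the call rule. Promoter motifs and protein sequences were not analysed here.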

Additional observations from a re-analysis of the deposited data

How the results depend on the processing

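The calls of the 8 loci rested on 1 library per condition, so neither variation between plants nor a faulty library could be assessed, and the low ABA8ox1 value at 1 d was seen once. No paired analysis was possible because each condition had 1 library. With DESeq2 size factors, 5 loci were called higher at 3 d instead of 3, the additional ones being ZEP (1.58) and ABA8ox1 (1.09), and TMM factors added ZEP alone (1.44). Of all loci, 20.8% were called higher at 3 d in CPM, 30.5% with TMM and 32.7% with DESeq2. Of the counts of called loci under all alternatives, 53 stayed within 1.5 times the value reported and 1 did not, and no call changed direction. Of the single log2 ratios, 106 stayed within their counting interval and 38 moved out of it. The 106 include ratios that could not move, those under the choice of transcript and those of ZEP, which has no adjoining entry to add. The NCED share moved from 90.4% to 19.7% in C and from 95.6% to 39.2% at 1 d when only NCED3, NCED4 and NCED5 were counted. Per kb of length it was 93.6% in C, 98.0% at 1 d, 95.6% at 2 d and 95.5% at 3 d. Introns counted in the lengths of the hydroxylases may raise these values. The counts of the 4 lists stayed within 1.5 times in 107 cases and not in 13, among them the later synthesis steps called higher at 3 d (6, or 10 with DESeq2) and the carotenoid supply loci called lower at 2 d (8, or 4 with TMM or DESeq2). The share of all loci called lower at 2 d was 34.9% in CPM, 27.7% with TMM and 27.0% with DESeq2. Adding the reads of adjoining entries was an alternative chosen after seeing the data and changed no call.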

Other observations

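The loci nearest to NCED1 in pattern were looked up after its values had been seen. They were Os08t0323400, similar to rubredoxin, with 4893, 5052, 239 and 36 reads in C, 1 d, 2 d and 3 d (distance 0.19), Os12t0498500, a DnaJ domain protein, with 4661, 4979, 300 and 33 reads (0.24), and Os02t0697500, similar to a selenium-binding protein, with 2480, 3204, 130 and 16 reads (0.28). In all, 11 loci lay within 0.5 of NCED1.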
